A study of Mus musculus with 51 samples.

Results

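Of the 47164 sites of open chromatin that the authors merged over mouse neutrophil samples, 11638 (24.7%) lay between genes but near one. A site was taken when it overlapped no gene body and when its edge lay over 1000 bp and up to 50000 bp from the nearest gene start, by the gene coordinates in the header columns of the tissue RNA table. No measurement of accessibility or expression entered this choice. The closest site taken lay 1006 bp from a start and the farthest 49986 bp, with a median of 11237 bp, and the sites just outside both limits lay at 997 and 50011 bp. The other sites lay within 1000 bp of a gene start (13401), inside a gene body farther from a start (20064), between genes over 50000 bp from a start (2023) or on a contig with no gene (38).

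Open chromatin between genes holds enhancers and other distal regulatory elements, which bind transcription factors and act on promoters over a distance, not always on the nearest one. In myeloid cells such elements are set up by lineage factors of the C/EBP, ETS and RUNX families and are opened further by signal-dependent factors of the AP-1, NF-kB and IRF families once a microbe is sensed. Neutrophils leave the bone marrow with their granule proteins already made, pass through blood and enter inflamed tissue, where they switch on cytokine and chemokine genes.

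Ly6G+ neutrophils came from mice with an air pouch, a cavity raised under the skin, which received 100 µg of zymosan (yeast cell wall particles) on day 6 and was sampled 4 hours later. Open chromatin was measured by ATAC-seq on 75000 sorted cells per library, with 2 libraries each from bone marrow, blood, pouch membrane and pouch exudate, and by the labels all 4 tissues came from mice with an inflamed pouch, so no group is from untreated mice. RNA of the same tissues was measured with Smart-seq2 in neutrophils of CX3CR1GFP Ly6GCre-tdTomato mice, with 3 bone marrow, 5 blood, 2 membrane and 5 exudate libraries. Smart-seq2 amplifies cDNA from few cells. ER-Hoxb8 neutrophils, grown from progenitors held immature by an estrogen-controlled Hoxb8, were differentiated for 5 days with G-CSF and given 50 µg/ml zymosan or DMSO, its vehicle, for 2 hours. They were wild type or labelled CEBPB-/- and JUNB-/- (set 1), and wild type or labelled IRF5-/- and RELB-/- (set 2), with 2 libraries per line and treatment. Each factor names a transcription factor: C/EBPβ, JunB (a subunit of AP-1), IRF5 and RelB (a subunit of NF-kB). The labels do not say whether a line was 1 clone, give no age or sex of the mice, and do not say whether libraries came from separate animals or cultures, so p-values measure only the spread between these libraries.

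Total counts over genes were 9.24 to 19.1 M in the 15 tissue libraries, 19.4 to 32.4 M in set 1 and 24 to 34.3 M in set 2. Levels are given as CPM, counts per 1e6 counts of the library, scaled between libraries by TMM factors. The neutrophil marker list summed to 277785 to 347828 CPM in bone marrow, 203433 to 310347 in blood and 83008 to 340645 in exudate. In membrane it summed to 105610 to 153625, and these libraries did not overlap those of bone marrow. Membrane and bone marrow columns also differ in a tag in their names, so tissue and tag cannot be told apart. Dendritic cell and MHC class II markers summed to 0.172, 3.18 and 129 CPM as lowest, median and highest of bone marrow, to 1.38, 114 and 407 in exudate and to 180 and 251 in the 2 membrane libraries. Monocyte and macrophage markers summed to 1069 to 2363 CPM in all tissues. The part of these levels in the tissue results was not tested. Erythroid markers reached 1492 CPM in 1 bone marrow library and stayed at 5.92 CPM or below in the other two. Of the RNA libraries, 3 stood apart from their groups: exudate column 5 was low in transcripts that the other exudate libraries held at high levels, and blood columns 1 and 2 were high in them, unlike the other blood libraries. Acod1 shows both, at 9757 to 11053 CPM in exudate columns 1 to 4 against 19.2 in column 5, and at 3608 and 6399 CPM in blood columns 1 and 2 against 154 to 224 in columns 3 to 5.

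The RefSeq table (GRCm38.p6, the build of the files) gives 300 bases around each gene start, 250 before it and 50 after. Where such a window overlapped one of these intergenic sites, the overlapping sequence could be read. This held for 199 of the 11638 sites, of which 44 were in a list of changed sites. Part of the genome was left out of this search, so both counts may be too low. Below are 8 of the 44. They were chosen because the authors' deposited table assigns them to genes described below or because they carry large differences. They are named by that assigned gene or, for Acod1, Gm12250 and Trdmt1, by the nearest start. The assigned gene starts 2344 bp away for Nfkbia, 46263 for Tnfaip3, 61754 for Rbm38, 158211 for Pparg and 180075 for Marcks, and in these 5 cases another gene start is nearer. Each is written 5′ to 3′ on the strand of the RefSeq gene whose start window it comes from, with capitals on motif matches on either strand. Except for Gm12250, that gene is not the one in the label. It is Gm36634 for the Nfkbia site, Gm51814 for Tnfaip3, Gm26535 for Marcks and 4933432I03Rik for Acod1. For Trdmt1 it is Gm9875, for Pparg Gm36301 and for Rbm38 Gm40011. The motifs searched were C/EBP (TTNNGNAA), AP-1 (TGANTCA), ETS (GGAAGT), RUNX (TGTGGT), the interferon response element (GAAANNGAA) and the κB consensus. Matches may overlap one another. The first 6 were more open in exudate than in bone marrow and the last 2 less accessible.
Nfkbia site, chr12:55494991-55495122, + strand: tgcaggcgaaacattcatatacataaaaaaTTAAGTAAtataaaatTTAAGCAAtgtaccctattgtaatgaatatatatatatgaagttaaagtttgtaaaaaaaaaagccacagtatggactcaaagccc
Tnfaip3 site, chr10:19062529-19062828, + strand: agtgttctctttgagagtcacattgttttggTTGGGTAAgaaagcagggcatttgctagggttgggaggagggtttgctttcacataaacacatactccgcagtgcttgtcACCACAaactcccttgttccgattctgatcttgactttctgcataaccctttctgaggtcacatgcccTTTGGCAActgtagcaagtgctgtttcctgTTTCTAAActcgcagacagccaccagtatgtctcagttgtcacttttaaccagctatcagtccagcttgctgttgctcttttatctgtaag
Marcks site, chr10:37319255-37319543, + strand: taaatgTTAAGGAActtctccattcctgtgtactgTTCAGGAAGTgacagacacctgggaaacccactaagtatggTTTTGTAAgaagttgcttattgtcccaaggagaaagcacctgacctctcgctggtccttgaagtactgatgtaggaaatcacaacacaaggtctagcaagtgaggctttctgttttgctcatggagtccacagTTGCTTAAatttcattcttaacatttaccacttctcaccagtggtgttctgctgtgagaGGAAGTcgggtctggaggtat
Acod1 site, chr14:103033754-103033963, - strand: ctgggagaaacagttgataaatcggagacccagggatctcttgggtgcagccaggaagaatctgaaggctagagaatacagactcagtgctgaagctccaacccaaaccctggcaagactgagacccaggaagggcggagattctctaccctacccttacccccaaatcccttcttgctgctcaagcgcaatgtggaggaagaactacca
Gm12250 site, chr11:58183593-58183892, + strand: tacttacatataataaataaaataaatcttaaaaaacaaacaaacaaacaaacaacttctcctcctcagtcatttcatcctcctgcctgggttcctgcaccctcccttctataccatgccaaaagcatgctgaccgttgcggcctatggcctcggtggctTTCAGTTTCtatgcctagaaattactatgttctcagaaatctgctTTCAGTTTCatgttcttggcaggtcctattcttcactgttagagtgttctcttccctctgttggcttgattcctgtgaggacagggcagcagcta
Trdmt1 site, chr2:13558653-13558952, + strand: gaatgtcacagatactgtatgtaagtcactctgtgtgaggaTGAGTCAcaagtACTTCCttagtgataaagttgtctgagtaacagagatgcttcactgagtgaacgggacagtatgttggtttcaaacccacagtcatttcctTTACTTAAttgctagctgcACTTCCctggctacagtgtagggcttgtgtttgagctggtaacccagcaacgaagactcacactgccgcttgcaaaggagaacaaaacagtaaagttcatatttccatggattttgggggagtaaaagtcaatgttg
Pparg site, chr6:115519452-115519718, - strand: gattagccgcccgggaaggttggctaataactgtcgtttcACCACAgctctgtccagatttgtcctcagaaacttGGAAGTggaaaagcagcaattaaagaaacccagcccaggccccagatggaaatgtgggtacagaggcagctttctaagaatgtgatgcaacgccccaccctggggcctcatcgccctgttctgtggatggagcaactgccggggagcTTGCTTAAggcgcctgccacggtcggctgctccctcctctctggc
Rbm38 site, chr2:173082530-173082829, + strand: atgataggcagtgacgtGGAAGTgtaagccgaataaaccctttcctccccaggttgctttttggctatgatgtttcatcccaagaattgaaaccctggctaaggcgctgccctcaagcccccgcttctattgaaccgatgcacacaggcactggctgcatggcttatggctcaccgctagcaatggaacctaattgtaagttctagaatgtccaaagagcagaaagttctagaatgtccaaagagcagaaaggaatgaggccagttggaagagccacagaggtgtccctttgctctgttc

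The Nfkbia sequence carried 2 C/EBP matches, the Tnfaip3 sequence 3 with 1 RUNX match, and the Marcks sequence 4 with 2 ETS matches. Nfkbia and Tnfaip3 encode feedback inhibitors of NF-kB, and Marcks encodes an actin-binding membrane protein. The Acod1 sequence carried no match to any of the 6 motifs, which says only that these letters are absent from this window. Gm12250, an interferon-inducible GTPase gene, had 2 interferon response matches. The Trdmt1 sequence, from the site with the highest -log10 p of the 8 (21), had 1 AP-1, 1 C/EBP and 2 ETS matches. Among whole windows of 300 bases inside these sites, a C/EBP match was present in 7 of 10 more open in exudate and in 1 of 9 less accessible. The same motif was found in 34 of 100 windows inside sites in no list (34.0%) and in 40.7% of the 32817 RefSeq start windows searched. AP-1 matches were present in 2 of 10, 0 of 9, 14% and 7.81% of the same windows. In the same order, ETS matches were in 2 of 10, 3 of 9, 35% and 23.8%. RUNX matches were in 2 of 10, 1 of 9, 31% and 16.8%. Interferon response matches were in 3 of 10, 2 of 9, 5% and 8.55%, and κB matches in 0 of 10, 0 of 9, 5% and 4.5%. The windows are few and lie mostly upstream of RefSeq starts (250 bases before and 50 after), so they describe these sequences only.

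The authors deposited 10 lists of sites that differed between tissues, each with a -log10 p per site, which the lists do not mark as adjusted or not. The lowest value in every list was 1.3 or just above, which is the value for a p of 0.05. A site was counted as changed when its name stood in a list. The lists hold no value per library, so the spread between the 2 ATAC-seq libraries of a tissue cannot be read from them. In all, 2730 of the 11638 intergenic sites (23.5%) were in 1 or more lists, against 9452 of all 47164 sites (20.0%).

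Most of the listed change was a gain of accessibility in the pouch. In exudate against bone marrow, 1459 sites were more accessible ("gained" below, 12.5%, against 9.93% of all sites) and 552 were less accessible ("lost" below, 4.74%, against 4.72%). Membrane against bone marrow gave 1271 more accessible sites (10.9%, against 8.6%) and 550 less accessible (4.73%, against 4.55%). Exudate against blood gave 853 (7.33%, against 6.01%) and 313 (2.69%, against 2.3%). Membrane against blood gave 678 (5.83%, against 4.72%) and 256 (2.2%, against 1.92%). Blood against bone marrow, tissues that neutrophils cross before reaching the pouch, gave only 179 (1.54%, against 1.19%) and 97 (0.833%, against 0.812%).

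Gains were thus a larger share of the intergenic sites than of all sites in each of the 5 comparisons, and these differences were not tested. For losses the shares differed by less in each comparison, and by more against blood than against bone marrow. Within 1000 bp of a gene start, 4.6% of sites were more open in exudate than in bone marrow and 3.78% less accessible. In gene bodies 11.9% were more accessible, and between genes beyond 50000 bp it was 11.4%, so the share was higher in all 3 distal classes than at gene starts. Of the intergenic sites in either list of exudate against bone marrow, 72.6% were gained, compared with 67.8% of all sites in those lists.

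**Figure D1:**
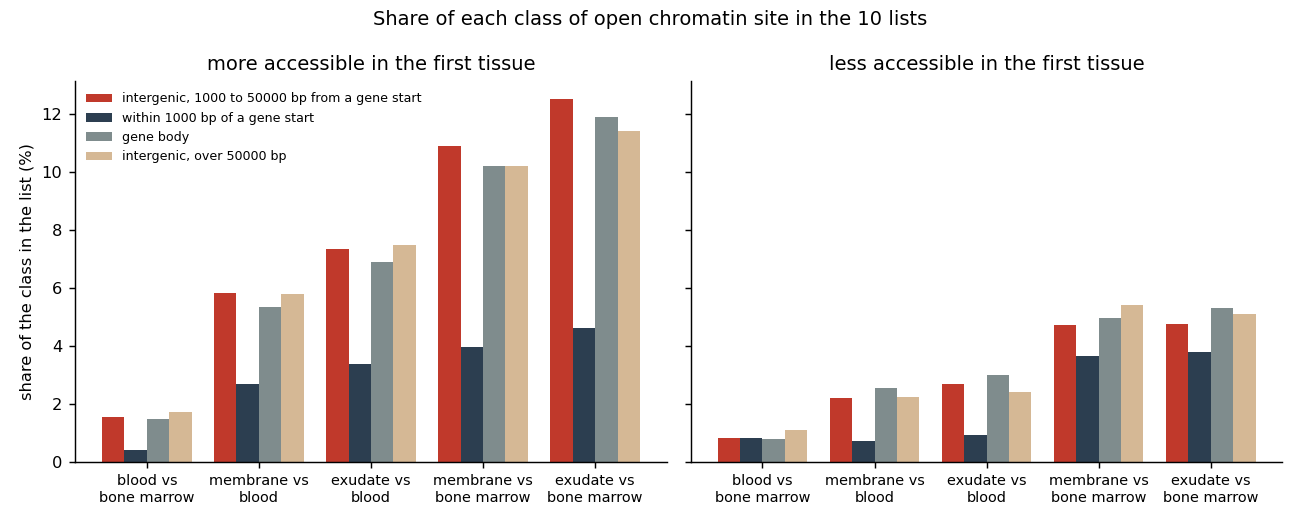
Share of each class of site (%) in the 10 deposited lists, with sites more open in the first-named tissue on the left and less accessible on the right. Intergenic sites near genes reach 12.5% in exudate against bone marrow, where sites at gene starts reach 4.6%.

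Distance from the gene start was divided into 5 ranges. More accessible sites in exudate against bone marrow made up 11.7% of the 719 sites at 1000 to 2000 bp, 10.8% at 2000 to 5000 bp, 12.9% at 5000 to 10000 bp, 11.6% at 10000 to 20000 bp and 14.3% of the 3283 sites at 20000 to 50000 bp. Less accessible sites stayed between 4.43 and 4.96% over the same ranges. In blood against bone marrow, with far fewer listed sites, the gained share ran from 0.759% at 2000 to 5000 bp to 2.13% at 20000 to 50000 bp, and the lost share from 0.572 to 1.32%. Upstream sites were the larger group (7783, or 66.9%), and 12.1% of them were more open in exudate, against 13.4% of the 3855 downstream sites.

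**Figure D2:**
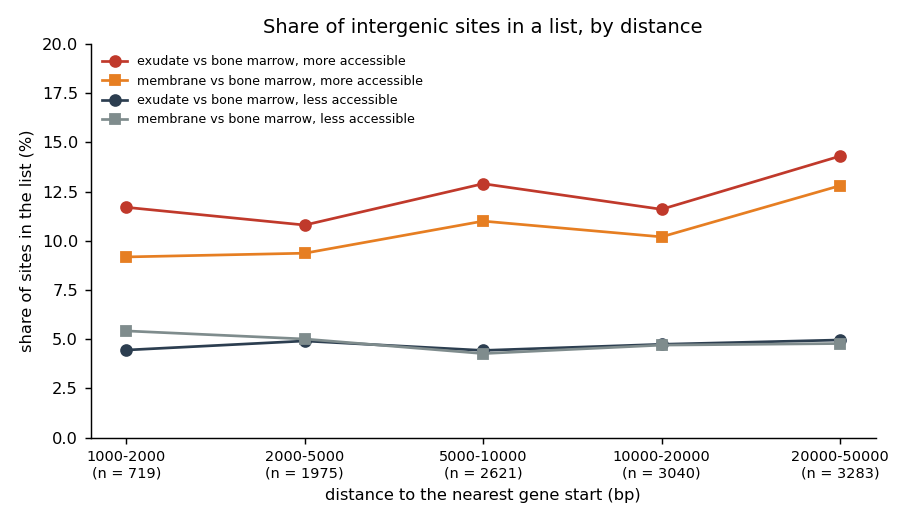
Share of intergenic sites (%) in 4 lists against bone marrow, by distance to the nearest gene start in bp, with the number of sites in each range. More accessible sites in exudate lie between 10.8 and 14.3% in every range, and less accessible sites between 4.43 and 4.96%.

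The authors' score of each merged site, whose scale is not stated, moved with being listed. Across 5 equal groups of sites from the lowest to the highest score, 6.4, 9.54, 12.7, 16.1 and 17.9% of the sites were more open in exudate than in bone marrow. The less accessible share ran from 0.601% to 11.1% over the same groups. Sites at gene starts had a median score of 205, against 75 for the intergenic sites, and were nevertheless less often listed. The part of the score in the class shares was not tested.

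Membrane and exudate had many gained sites in common. Comparisons that share no library allow this to be counted: of the 853 sites more open in exudate than in blood, 655 (76.8%) were also among the 1271 more open in membrane than in bone marrow, which is 51.5% of that list. Of the 678 more open in membrane than in blood, 574 (84.7%) were among the 1459 more open in exudate than in bone marrow (39.3%). For less accessible sites the overlaps were 141 (45.0 and 25.6% of the lists) and 120 (46.9 and 21.7%). Over all 47164 sites the same shares were 74.4 and 52.0% and 83.7 and 39.8% for gains, and 42.2 and 21.4% and 44.9 and 18.2% for losses. The gained shares of intergenic sites were thus close to those of all sites. Opposite directions held 1 and 0 intergenic sites in the first pair of comparisons and 3 and 0 in the second. Over all sites they held 1 and 2, and 5 and 0.

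The site with the largest -log10 p of all the intergenic sites lay beside Mefv, which encodes pyrin, a sensor that assembles an inflammasome. It spans chr16:3723192-3723721 (GRCm38), 5068 bp upstream of the Mefv start. Its -log10 p was 56.8 in exudate and 55.0 in membrane against bone marrow, and 44.3 and 42.7 against blood. Blood against bone marrow did not list it. Downstream of Mefv, 2 further sites were listed at 5.15 and 6.89 in exudate. Beyond them, 10 sites between 3642023 and 3662983 on the same chromosome were all more open in exudate, at 3.62 to 18.2. Their nearest start is the pseudogene Olfr163-ps1, and the authors' deposited table names Olfr161.

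Mefv RNA had the lowest adjusted p of the genes tested near gained sites. It was 0 CPM in all 3 bone marrow libraries, 540, 576, 276, 118 and 11.9 CPM in the 5 exudate libraries, 549 and 166 CPM in membrane, and 331, 45.4, 50.4, 30.5 and 151 CPM in blood. No exudate library overlapped bone marrow. The difference between the groups had an adjusted p = 0.011 (edgeR quasi-likelihood test). A floor of 3 counts over the bone marrow group was 0.0717 CPM without TMM scaling. Against it the exudate mean of 304 CPM was roughly 4241-fold higher or more, and the lowest exudate library roughly 165-fold or more. In wild-type ER-Hoxb8 cells Mefv rose from 16.6 and 15.4 to 150 and 160 CPM in set 1 and from 20.1 and 20.7 to 144 and 139 CPM in set 2, a log2 change of 3.28 ± 0.06 (SE) and 2.79 ± 0.04 (adjusted p = 4.29e-49 and 5.55e-63, edgeR).

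The gene groups below are read against all intergenic sites, of which 12.5% were gained and 4.74% lost in exudate against bone marrow, and none of these groups was tested against them. Of 25 sites nearest to 8 genes of the chemokine group, 14 were gained (56.0%) and 0 lost. The group includes the receptor-like gene Ccrl2, which held 2 of these gains and is also counted under adhesion and migration below. Cxcl2, which encodes a neutrophil attractant, had 4 sites from 4714 bp upstream to 4977 bp downstream, all 4 listed at 4.94 to 20.5, the highest at chr5:90906463-90906995. Its RNA was 214 to 7121 CPM in exudate and 179, 269 and 287 CPM in bone marrow, so the exudate library lowest in it, column 5, fell among the bone marrow values (log2 difference 4.18 ± 1.14 (SE), adjusted p = 0.0938, edgeR). In culture Cxcl2 went from 619 and 560 to 17393 and 17493 CPM in set 1 (log2 4.89 ± 0.04 (SE), adjusted p = 2.29e-65, edgeR) and rose by 5.21 in set 2. Ccl3 and Ccl4, which encode inflammatory chemokines, had 1 and 3 gained sites and rose by log2 5.19 and 5.30 in set 1. The receptor gene Ccr1 had 5 gained sites of 16 and did not move one way: it was lower after zymosan in set 1 (log2 -0.59) and higher in set 2 (0.79), both past the threshold.

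Among 20 sites nearest to 6 cytokine genes, 10 were gained (50.0%) and 1 lost (5.0%). Il10, which encodes an anti-inflammatory cytokine, held 6 of these, on both sides of the gene, from 13791 bp upstream to 18130 bp downstream, at 2.84 to 16.3. Il10 RNA was near 0 in wild-type cells without zymosan (0.118 and 0.103 CPM in set 1) and 30.2 and 32.9 CPM with it. That is a log2 rise of 8.10 in set 1 and 7.24 in set 2. Tissue RNA for Il10 did not pass the filter on low counts. Csf1, the macrophage growth factor gene, is named in the authors' deposited table for a site at chr3:107818600-107819711, which had the second largest value in exudate against bone marrow, 51.7. Csf1 rose by 1.61 and 1.83 in the 2 wild-type sets.

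Of 34 sites near genes of NF-kB control, 14 were gained (41.2%) and 0 lost. Nfkbia had 8 sites, and 4 of them were listed, all downstream, led by chr12:55466166-55467319 at 31.9, 25328 bp from the gene start. Nfkbia RNA went from 378 and 375 to 2848 and 2719 CPM in set 1 (log2 2.89 ± 0.03) and from 1052 and 1022 to 3153 and 3089 CPM in set 2 (1.59 ± 0.02). Tnip1 had 4 gained sites of 4 and Tnfaip3 2 of 4. No site was listed at the subunit genes Nfkb1 and Rela, with 4 sites each, or at Birc3, Cd83 and Nfkbiz. Tnfaip3 rose by 4.91 and 3.05 in the 2 sets. Interferon-stimulated genes had 6 gains (40.0%) and 0 losses in 15 sites, 4 of them at Rsad2, an antiviral gene, at 14.7 to 45.1. Rsad2 RNA was 5490 to 10238 CPM in exudate columns 1 to 4, 74.2 in column 5 and 33.5, 3.18 and 0.0572 CPM in bone marrow, while in culture it rose only by 0.61 and 1.49.

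Acod1 encodes the enzyme that makes itaconate. All 6 of its sites were listed: 5 were more open in exudate than in bone marrow, at 2.83 to 20.5, and 1, at chr14:103016991-103017571, was instead less open in membrane than in blood (9.67) and in bone marrow (6.7). Acod1 RNA was 69.8, 28.9 and 70.9 CPM in bone marrow, below exudate columns 1 to 4 but above column 5 (adjusted p = 0.0529, edgeR). In set 1 it rose from 702 and 723 to 10375 and 10141 CPM, a log2 change of 3.85, and in set 2 by 3.69. The authors' deposited table names Kctd12 for 5 of these 6 sites and Irg1, the older name of Acod1, for the other.

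The survival and death group also held genes that restrain signalling, of the Socs and Dusp families, and most of its gains were at these. Of its 49 sites, 17 were gained (34.7%) and 1 lost (2.04%). Gains were at Socs3 (5), which restrains cytokine signalling, Dusp1 (2), Dusp16 (2) and Socs1 (1). The others were at Mcl1 (4), which keeps neutrophils alive, Pmaip1 (2) and Gadd45b (1), and the loss was at Dusp2. Mcl1 RNA was 538, 294 and 341 CPM in bone marrow and 940 to 1932 CPM in exudate, with no overlap (log2 difference 2.02 ± 0.59, adjusted p = 0.1, edgeR). Sites near pattern recognition genes gave 12 gains (37.5%) and 1 loss of 32, adhesion and migration genes 12 (21.8%) and 1 of 55, and granulocyte transcription factors 10 (27.0%) and 0 of 37, 4 of these at Runx1. Among 53 sites near AP-1 and immediate early factors there were 6 gains (11.3%) and 3 losses (5.66%), both close to the share of all intergenic sites. Atp2b1, a calcium pump gene, had 6 gained sites, led by chr10:98879999-98880589, 33817 bp upstream (48.9), and rose by 2.10 and 1.71 after zymosan.

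The specific granule group and the gelatinase granule and maturity group held more lost sites, at few genes. Of 18 sites near specific granule genes, 1 was gained (5.56%) and 6 were lost (33.3%). These losses were at Ngp (3), Cd177 (1), Chil3 (1) and Ltb4r1 (1), with none at Ltf or Camp. Ltb4r1 is a receptor gene that the group's list also held, not a granule protein gene. Of 32 near gelatinase granule and maturity genes 10 were lost (31.2%) and 5 gained (15.6%), the gains close to the share of all intergenic sites. The losses were at Retnlg (4), S100a8 (4), S100a9 (1) and Padi4 (1), with none at Mmp9. Ngp, a granule protein gene of maturing neutrophils, had 3 lost sites of 4 at 10.0 to 21.7. Its RNA was 52122, 63352 and 53823 CPM in bone marrow, and 309, 2560, 975, 1629 and 12212 CPM in exudate, with no overlap. The log2 difference was -4.0 ± 0.87 (SE), which missed the threshold (adjusted p = 0.0516, edgeR). Lost sites did not always go with less RNA: Retnlg had 4 of 5 sites lost at 2.53 to 12.4, while its RNA was 9460 to 12530 CPM in bone marrow and 3960 to 33796 in exudate. S100a8 likewise had 4 of 5 sites lost, and its RNA lay at 135370 to 186620 CPM in bone marrow and 58272 to 220910 in exudate. Csf3r, the G-CSF receptor gene, had 4 gains of 6 sites instead. Azurophil granule genes had only 2 intergenic sites, neither in a list.

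**Figure D3:**
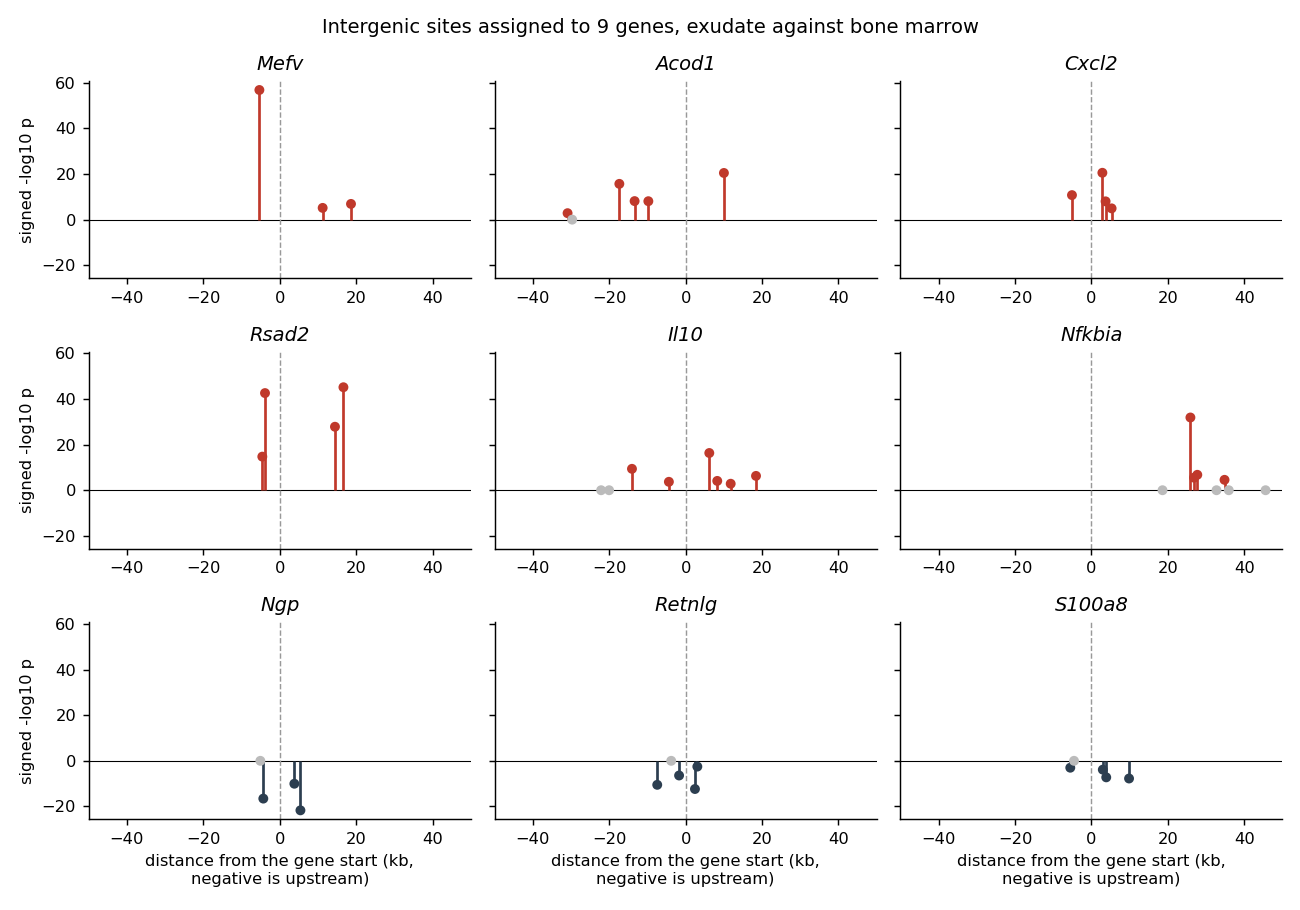
Signed -log10 p in exudate against bone marrow (up is more accessible, down less, grey at 0 is not in either list) against distance from the gene start in kb, for the intergenic sites assigned to 9 genes. Sites at Mefv, Acod1, Cxcl2, Rsad2, Il10 and Nfkbia point up, to 56.8 at Mefv, and those at Ngp, Retnlg and S100a8 point down, to 21.7 at Ngp.

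Some of the sites with the largest losses were assigned to genes whose RNA rose. At chr2:118127286-118128046, given to Thbs1 in the authors' deposited table, accessibility was lower in blood than in bone marrow (29.7) and lower in exudate than in bone marrow (18.4). The 2 lost sites given to Thbs1 lay 15410 to 16305 bp from its start, and another gene start was nearer to each. Thbs1, which encodes thrombospondin, nevertheless rose from 1135 and 1164 to 18061 and 18878 CPM in set 1 and by log2 4.77 in set 2. In the tissues it was 802, 1147 and 1157 CPM in bone marrow and 7212 to 18613 CPM in exudate columns 1 to 4, with 1.53 in column 5. The site at chr1:40125900-40126463, assigned by the authors to Il1r2, the decoy receptor of interleukin 1, was lower in blood (20.8) and in exudate (8.02) than in bone marrow yet higher in exudate than in blood (4.11). Il1r2 starts 51821 bp from it, while the nearest start, of Gm37347, is 37389 bp away. Il1r2 RNA rose by 1.40 and 1.57 in culture. The largest loss of all, at chr16:48788481-48789136 near Trat1, was at 37.5 in exudate and 31.0 in membrane.

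Few genes nearest to the sites passed the test in the tissue RNA. On simulated data the comparison of exudate with bone marrow found 0 of 100 genes changed 8-fold, with 2 false calls. The number of calls therefore cannot show how many genes changed. In exudate against bone marrow edgeR called 4 of 486 tested genes near gained sites higher, where 0.0649% of all genes tested were called, and 1 of 212 near lost sites lower, where 0.114% were called. Chosen here after their values were seen, these are Mefv, Il15ra, Clec4d and Fth1, and Chil3. Clec4d, a receptor for fungal cell walls, was 6282, 6902, 9241, 10003 and 1610 CPM in exudate and 236, 553 and 348 CPM in bone marrow (log2 4.17 ± 0.85, adjusted p = 0.0493, edgeR). Fth1, the ferritin heavy chain gene, was 12301 to 85943 CPM in exudate against 3870 to 4937 in bone marrow (log2 3.63 ± 0.68, adjusted p = 0.0395, edgeR). Il15ra had 0 counts in bone marrow and 365, 260, 256, 263 and 0.459 CPM in exudate (adjusted p = 0.0493, edgeR). Its exudate mean was roughly 3193-fold higher or more against the same floor. Chil3, which encodes a chitinase-like protein of maturing neutrophils, was 2930, 3441 and 4136 CPM in bone marrow and 0 to 13 CPM in exudate (adjusted p = 0.0493, edgeR). In the same fit 154 of the 486 had an unadjusted p under 0.05, and DESeq2 called 89. Without exudate column 5 edgeR called 30 higher and 3 lower, and without any single bone marrow library it called 0 of each.

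Levels in single libraries show how the groups compare. The median log2(CPM + 1) of genes near gained sites was 2.98 to 3.09 in the 3 bone marrow libraries and 4.02, 4.44, 4.07, 4.60 and 0.54 in the 5 exudate libraries, so 4 of 5 exudate libraries lay above all bone marrow libraries and column 5 lay below. Genes near lost sites were at 3.68 to 4.00 in bone marrow and 0.58 to 2.10 in exudate, with no overlap. Over all genes tested the median was 0.64 to 1.56 in bone marrow and 0.11 to 0.53 in exudate, lower as well. Relative to that shift, genes near gained sites differed by a median of 0.68 on the log2(CPM + 1) scale and genes near lost sites by -0.32. Without exudate column 5 these were 0.77 and -0.39. Among columns that share the tag 100 in their names, whose meaning is not stated, they were 0.79 and -0.44. No such value exists for tag 300, which no bone marrow column carries. Both membrane columns carry tag 300, so in membrane against bone marrow RNA the tissue and the tag cannot be told apart. By edgeR log2 changes the differences for exudate against bone marrow were 1.48 for gains and -0.15 for losses. In exudate against blood, genes near lost sites were not lower than all genes, at 0.05 on the log2(CPM + 1) scale and 0.34 by edgeR. On the log2(CPM + 1) scale that value was -0.31 without exudate column 5, 0.12 within tag 100 and -0.44 within tag 300. In these bulk samples fewer cells of a type and less RNA per cell cannot be told apart.

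ER-Hoxb8 cells gave a measure of the zymosan response that the site lists did not use, though the tissue lists were made from animals given zymosan too. The 1459 gained sites had 1009 nearest genes, of which 540 were tested in set 1. Of these, 308 rose (57.0%, against 35.7% of all genes tested) and 143 fell (26.5%, against 39.9%), with a median log2 change of 0.57 against -0.07. In set 2, 332 of 545 rose (60.9%, against 36.3%) and 112 fell (20.6%, against 32.1%), with a median of 0.58 against 0.05. Genes nearest to sites in no list lay close to the background, with 39.4% higher and 39.9% lower in set 1 and 40.0% and 34.9% in set 2. Genes nearest to lost sites were also closer to it than those near gained sites: 89 of 226 rose (39.4%) and 86 fell (38.1%) in set 1, and 102 of 238 rose (42.9%) and 67 fell (28.2%) in set 2. The nearest genes were counted once each, and 36 were nearest to both a gained and a lost site.

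The share of genes that rose was higher where more gained sites lay next to a gene. With 1 gained site 195 of 390 genes rose in set 1 (50.0%, median log2 0.28), with 2 sites 68 of 92 (73.9%, 1.28) and with 3 or more 45 of 58 (77.6%, 1.55). Set 2 gave 54.5, 75.0 and 82.5%, with medians of 0.41, 1.18 and 1.40. Among genes that had only unlisted sites, those with 1, 2 and 3 or more rose in 40.0, 36.9 and 40.3% of cases in set 1 and in 39.0, 41.4 and 43.5% in set 2, a smaller range. Each set has its own wild-type libraries. Neighbouring genes and sites are not replicates, and no test was made of these orders.

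**Figure D4:**
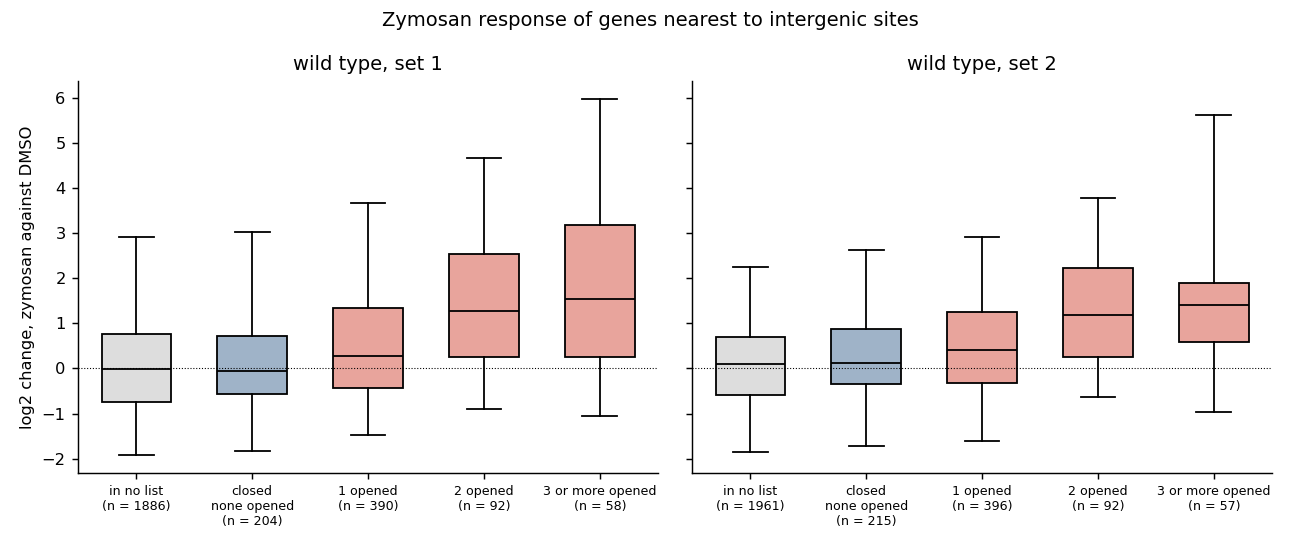
Log2 change after zymosan against DMSO in wild-type ER-Hoxb8 cells of set 1 (left) and set 2 (right), for genes nearest to intergenic sites in no list, to lost sites only ("closed") and to 1, 2 or 3 and more gained sites ("opened"), where boxes are quartiles with the median and whiskers run from the 5th to the 95th percentile of genes. Medians in set 1 go from 0.28 with 1 gained site to 1.55 with 3 or more.

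The gene that rose need not be the nearest by the annotation. The authors' deposited table names Cebpb for 10 gained sites between 167734778 and 167911996 on chromosome 2, Marcks for 12 on chromosome 10, Runx1 for 8, Ell2 for 6 and Klf6 for 6. The named gene starts were 45863 to 222530 bp from the sites for Cebpb, 82743 to 196121 bp for Marcks and 78779 to 94379 bp for Ell2, and for none of these 3 genes was it the nearest start. Only 789 of the 2730 listed sites (28.9%) had the same gene by both assignments. Ell2, an elongation factor gene, rose by 3.88 and 3.21 in the 2 wild-type sets. Bcl2l11, which encodes the death factor Bim and is named for 3 gained sites that lie 310092 to 325408 bp away, rose from 137 and 134 to 1784 and 1787 CPM in set 1, a log2 change of 3.72, and by 3.19 in set 2. Cebpb rose by 0.98 and 1.18. Some genes beside gained sites fell: Csf3r by log2 1.20 and 0.71, and Cxcr2, a chemokine receptor gene with 1 gained site, by 3.79 and 2.56.

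Before the knockout lines are compared, the levels of the targeted transcripts are given. Cebpb RNA was not lower in the line labelled CEBPB-/-: with zymosan it was 2880 and 2190 CPM against 1070 and 938 in wild type (log2 1.34), and with DMSO 537 and 510 against 479 and 536. Junb was 2084 and 2158 CPM against 2381 and 2230 with zymosan (log2 -0.12, adjusted p = 0.00539, edgeR) and 486 and 511 against 851 and 948 with DMSO. Irf5 was 112 and 108 against 136 and 137 CPM with zymosan, and 81.0 and 81.8 against 95.7 and 101 with DMSO. Relb was 377 and 369 against 469 and 448 CPM with zymosan, and 68.3 and 67.5 against 168 and 172 with DMSO. The lines are named by their labels below. In the line labelled CEBPB-/- the transcript was not lower, and RNA counts do not show whether a protein was lost.

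With zymosan, genes near gained sites were more often higher than lower in the line labelled CEBPB-/-. Of 540, 305 were higher than in wild type (56.5%, against 35% of all genes tested) and 106 lower (19.6%, against 32.9%). Genes near lost sites were at 41.6 and 31.9%, and genes near unlisted sites at 40.8 and 32.3%. Acod1 reached 18784 and 19066 CPM there, against 10375 and 10141 in wild type (log2 0.88, adjusted p = 7.6e-34, edgeR), and Atp2b1 1222 and 1236 against 848 and 826. Il10 went the other way, at 17.1 and 13 CPM against 30.2 and 32.9. Dhrs9, a retinol dehydrogenase gene with lost sites, was also lower, by log2 2.25.

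In the line labelled JUNB-/-, genes near lost sites, granule protein genes among them, were more often higher than lower. Of 226, 141 were higher than in wild type (62.4%, against 39.1% of all genes tested) and 52 lower (23.0%, against 37.4%), with a median log2 difference of 0.55 against -0.01. Genes near gained sites were at 47.2% higher and 36.5% lower, and those near unlisted sites at 47.0 and 33.1%. Ngp was 4969 and 5022 CPM against 697 and 663 in wild type (log2 2.88 ± 0.03), and without zymosan 4802 and 4685 against 505 and 513. Retnlg was 5533 and 5879 CPM against 455 and 461 (3.64 ± 0.05). S100a8 was higher by 1.62, Chil3 by 2.04 and Rbm38, named by the authors for the lost site shown above, by 2.56 (all adjusted p under the 0.05 threshold, edgeR). Several genes with strong gained sites were lower instead: Ccl4 was 95 and 97.6 CPM against 935 and 943 (log2 -3.29), Rsad2 22.3 and 21 against 164 and 170 (-2.95), and Il10 8.44 and 8.02 against 30.2 and 32.9 (-1.94).

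In set 2 the line labelled IRF5-/- had 243 of 545 genes near gained sites higher (44.6%, against 29.6%) and 141 lower (25.9%, against 30.8%), while genes near lost sites were at 42.4 and 30.7% and those near unlisted sites at 34.9 and 32%. The line labelled RELB-/- had 172 higher (31.6%, against 27.1%) and 195 lower (35.8%, against 28.9%), and 48.3% of genes near lost sites were higher and 26.1% lower. Genes near unlisted sites were at 33.4 and 29.2% in it. Rsad2 was 9.29 and 6.64 CPM in the line labelled RELB-/- against 48.8 and 48.8 in wild type (log2 -2.59). Ngp was 5233 and 5153 against 2308 and 2317 (1.17). Il10 was lower in all 4 lines, and the differences between lines were not tested. Lines of 1 set share their wild-type libraries, so their shares are given side by side only.

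**Figure D5:**
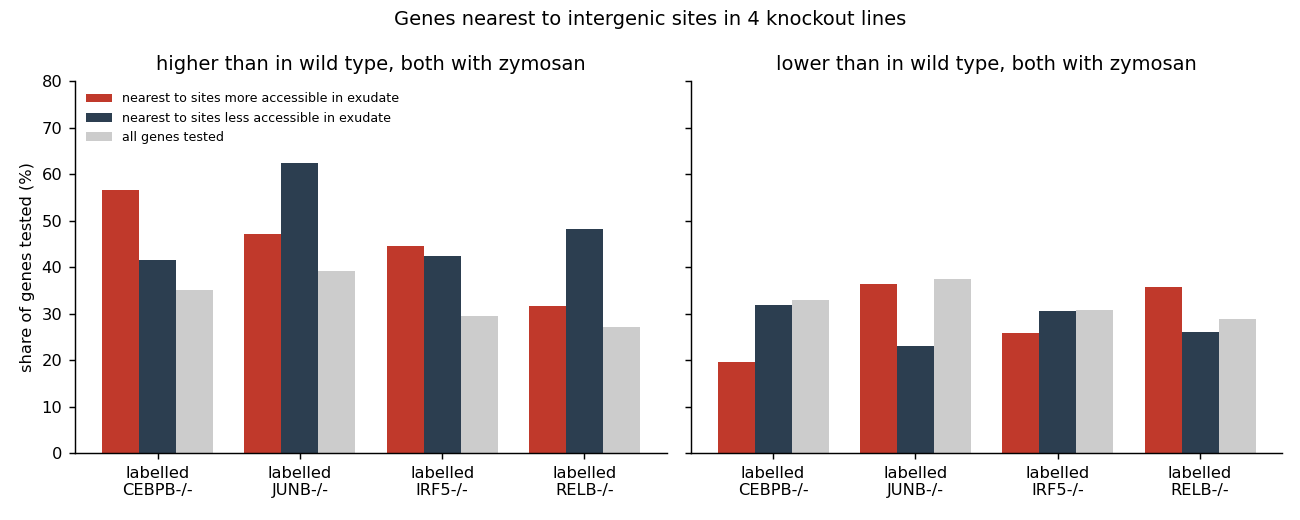
Share of genes tested (%) that were higher (left) or lower (right) than wild type with zymosan, by edgeR at an adjusted p under 0.05, for genes nearest to gained sites, to lost sites and for all genes tested. In the line labelled JUNB-/- 62.4% of genes near lost sites were higher, and in the line labelled CEBPB-/- 56.5% of genes near gained sites.

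Marcks, to which the authors' deposited table assigns 12 gained sites between 37221663 and 37335544 on chromosome 10, all 82743 bp or more from its start, was lower in every line than in wild type. In the tissues it was 20.5, 51.5 and 20.1 CPM in bone marrow and 736, 377, 564, 1216 and 691 CPM in exudate, with no overlap and with column 5 among the others (log2 4.54 ± 0.98, adjusted p = 0.0516, edgeR). Wild-type cells rose from 71.7 and 68.4 to 240 and 226 CPM in set 1 and from 72.6 and 71.3 to 322 and 318 in set 2. The line labelled JUNB-/- had 0 counts in both zymosan libraries and in both DMSO libraries, against 5245 and 6269 counts in wild type with zymosan. Against a floor of 3 counts over the group, without TMM scaling, that is roughly 4616-fold lower or more with zymosan and 1206-fold or more with DMSO. With zymosan Marcks was 53.9 and 51.7 CPM in the line labelled CEBPB-/- (log2 -2.14), 147 and 142 in IRF5-/- (-1.14) and 16.9 and 16.6 in RELB-/- (-4.26). It was thus lower in all 4 lines than in the wild type of its set (adjusted p from 2.6e-74 to 6.28e-39, edgeR).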

How the data were processed

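Counts per gene were made by the authors with featureCounts, version 1.5.0-p2 without strand for the tissues and version 1.6.3 with reverse strand for the cultures, per the file headers, and deposited unnormalised. STAR, cutadapt, Bowtie2, MACS2, deepTools and DESeq2 are named in the submitters' processing notes with mm10 and GRCm38, without settings. Each deposited list of differential sites gives a -log10 p per site made by the authors, not marked as adjusted or not. The deposited merged sites carry a score by the authors, whose scale is not stated, and other columns that hold the sites' names and positions.

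Sites were classed from the deposited coordinates with Python 3.11.15 and pandas 2.3.3, by the distance from the site's edge to the nearest gene start. Of 50600 gene IDs, 50376 (99.6%) had a symbol. Counts were fitted with edgeR 4.0.16 in R 4.3.3 (quasi-likelihood test, TMM, a minimum count of 10 in filterByExpr, Benjamini-Hochberg adjusted p under 0.05). Each table was fitted with all its groups, leaving 12330 genes in the tissues, 12899 in set 1 and 13779 in set 2. Levels are CPM of the counts over genes tested, scaled by the TMM factors. Floors of 3 counts use library totals without this scaling, so folds against them are approximate. Tissue column names carry a tag and a number (m1 to m4) of unstated meaning that match no sample title, so columns are named by their order within a tissue. In set 1, 18 columns were not used. RUNX1-/- and KLF6-/- cultures were not analysed here. Tested on simulated data, the tissue comparison of exudate with bone marrow found 0 of 100 genes changed 8-fold among 12330 genes, with 2 false calls. The zymosan comparison found 86 and 74 of 100 changed 2-fold in set 1 and set 2. Named were the 3 sites of highest -log10 p per list, up to 3 genes per gene list with the most listed sites, the 8 genes nearest to the most gained sites, the genes near gained sites with the largest zymosan changes in both wild-type sets, and the nearest tested gene of each. The targeted genes, the genes called in the tissues, the sites shown as sequence and those named only through the authors' gene assignment (such as Marcks, Cebpb, Csf1, Thbs1 and Il1r2) were chosen after their values were seen. The members and lists were chosen with earlier results of these data known. Alternatives were DESeq2 1.42.0, other scaling, filters, thresholds, distances and gene assignments, a replicate block and leaving out each library. Figures were drawn with matplotlib 3.10.9.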

Additional observations from a re-analysis of the deposited data

Results flagged for a closer look

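Among 15 genes, the 5 exudate and the 5 blood libraries were searched for a value far from the others, and 4 of 30 groups had one, where chance gives about 1 in 20. Acod1 was 19.2 CPM in exudate column 5, against 9757 to 11053 in the other exudate libraries. Ngp was 12212 CPM in the same library, against 309 to 2560. In blood column 5 Ngp was 44897 CPM, against 2578 to 8104. Mcl1 was 940 CPM in exudate column 3, against 1644 to 1932. Retnlg went in opposite directions in wild-type cells after zymosan, with a log2 change of -0.19 in set 1 and 0.30 in set 2, and this difference between the sets was not tested.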

How the results depend on the processing

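Of 606 alternative values for 50 results, 537 stayed near the reported value, and 69 moved. Only 148 of 162 tissue medians kept their sign. The site counts kept 96 of 98, and culture shares stayed on the same side of the background in 292 of 312. Up to 20000 bp, sites with a gain numbered 109 in blood against bone marrow and 450 in membrane against blood. With a log2 change of 1 or more required, genes near gained sites fell in 9.44% of cases in set 1 (17.4% of all genes), and rose in 36.9% (16%) and fell in 8.07% (13.1%) in set 2. Genes near lost sites then rose in 20.4% (19.2% of all genes) and fell in 14.6% in set 1 and in 20.2% and 11.3% in set 2. At that threshold the shares higher and lower near gained sites were 19.8 and 10.4% in CEBPB-/-, 17.0 and 18.9% in JUNB-/-, 7.34 and 7.34% in IRF5-/- and 2.57 and 11.6% in RELB-/-, where all genes gave 9.38 and 18.3%, 15.8 and 23.1%, 5.82 and 14.7%, and 3.43 and 12.8%. Near lost sites they were 13.3 and 16.8%, 34.1 and 14.6%, 7.98 and 14.3%, and 10.9 and 12.6%. Without a filter on low counts, 25.8% of genes near lost sites rose in set 1 and 39.4% near gained sites in set 2 (18.9% of all genes), 36.8% near gained sites were higher in CEBPB-/-, and 21.6% near gained and 16.7% near lost sites were lower in RELB-/-. More genes enter the denominator in that setting.

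Tissue medians were the least stable. Their reported values here are on the scale of edgeR log2 changes. For gains in membrane against blood the median difference from all genes (2.29) was 1.35 without the filter and 1.72 to 3.56 with 1 library left out, and for losses (0.403) -0.339 to 0.592. For gains in membrane against bone marrow (2.03) it was 0 without the filter, 2.46 with the 2 groups alone, 1.51 with the nearest tested gene and 0.166 to 2.05 with 1 library left out, the lowest without membrane column 1. Calls near gained sites in exudate (4) became 89 with DESeq2, 40 without the filter, 0 with the 2 groups alone, 2 within 20000 bp and 0 to 30 with 1 library left out. Calls near lost sites (1) became 24 with DESeq2, 2 with RLE scaling, without the filter, with the nearest tested gene or with the authors' gene, 0 with the 2 groups alone and 0 to 3 with 1 library left out. The cause of these shifts was not tested. Replicate numbers did not pair the cultures (0 of 15 pairs over 0.1 in either set), and with a replicate block 56.9% of genes near gained sites rose in set 1 and 60.7% in set 2, and none of the 24 shares moved. In the tissues the tag and number in the column names did not pair libraries either (0 of 11 pairs over 0.1) and were tried as a replicate block after the data were seen. The block called 48 genes near gained sites higher (1.42% of all genes) and 5 near lost sites lower (0.933%) in exudate than in bone marrow, and exudate columns 3 and 5, each alone in its block, then carry no weight. With this replicate block the medians against all genes were 2.66 for gains in membrane against bone marrow and -0.471 for losses in membrane against blood.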
